A study of Rattus norvegicus with 12 samples.

Results

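Excess and replacement of corticosterone, the main glucocorticoid of the rat, were compared in hypothalamic tissue that contained the paraventricular nucleus (PVH). The comparison set the 2 libraries of rats that received high corticosterone over 12 days (high Cort) against the 2 libraries of adrenalectomised rats supplemented with corticosterone (supplemented ADX). These 4 of the 12 libraries of the study were chosen by their titles, and 12856 of 17310 genes had enough fragments to be tested. All rats were wild-type Wistar rats aged 12 weeks. The other groups, of 2 libraries each, served as reference: sham-operated rats, rats 7 days after adrenalectomy (ADX), and rats labelled as acute corticosterone at 1 h and at 3 h. The labels do not give the dose or length of the supplement, a vehicle, whether the high Cort rats kept their adrenal glands, or whether a library came from 1 animal or from a pool. The supplemented rats also lacked the adrenal source of aldosterone and adrenaline, which a corticosterone supplement does not replace.

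Small neurons of the PVH release corticotropin-releasing hormone (CRH) and vasopressin toward the pituitary, which answers with corticotropin and so drives the adrenal cortex. Corticosterone closes the loop through the glucocorticoid receptor (Nr3c1) and the mineralocorticoid receptor (Nr3c2), transcription factors that bind the hormone and act on DNA in neurons, glia and vessels. Genes such as Fkbp5, Tsc22d3, Per1 and Sgk1 are known to rise on receptor activation, while Crh is known to fall.

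The high Cort libraries held 25294220 and 31000682 fragments and the supplemented ADX libraries 36249006 and 31810257, within the range of 17674159 to 36249006 over all 12. Pooled over the 6 groups, the common biological coefficient of variation was 0.047, with 6 residual degrees of freedom. The p-values measure the spread between libraries only, which may be technical, and an exact permutation of 2 against 2 libraries cannot go below 0.333. The authors processed high Cort in one Cuffdiff run, with sham and ADX, and supplemented ADX in the other, so run and group cannot be told apart here; raw fragments were used for that reason. Across the same 2 runs, supplemented ADX against sham called 0.0156% of genes, and the acute groups against sham called 7.98% at 3 h and 12.8% at 1 h. The thalamus lies beside the dissected tissue, and 18 of 19 tested thalamus genes read higher in high Cort, with a median log2 difference of 0.49. Their summed level was 3748 and 3865 CPM (fragments scaled to library size) in high Cort, and in supplemented ADX it was 2624 and 2716 CPM, and none was at 0. Their mean log2 CPM, entered below as a covariate in one alternative under the name of thalamus score, was 6.26 in both high Cort libraries and 5.78 and 5.77 in supplemented ADX. Rn18s, the gene of 18S ribosomal RNA, read 3568 CPM in high Cort library 1 and 1366 CPM in library 2, against 1177 and 1718 CPM in supplemented ADX. Genes of the anterior pituitary hormones Gh1, Prl and Fshb had no fragments in the 4 libraries, and the PVH genes Sim1, Otp, Avp and Oxt were present in all 4.

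In all, 442 genes were called at an edgeR adjusted p under 0.05, which is 3.44% of those tested. Of these, 285 were higher in high Cort (2.22%) and 157 were lower (1.22%), so 64.5% of called genes were higher, or 54.1% under a stricter filter on low counts. Most differences were small: the median absolute log2 fold change of called genes was 0.35, and 27 genes changed at least 2-fold, 14 upward and 13 downward. The groups overlapped for none of the called genes, while 6426 genes, or 50% of those tested, had groups that did not overlap. The count rests on each library: 79 genes were called without high Cort library 1, 213 without high Cort library 2, 111 without supplemented ADX library 1 and 104 without supplemented ADX library 2. After adjustment for the thalamus score, 126 genes were called, 103 of them among the 442. The score hardly varied within the compared groups (standard deviation 0.005 in high Cort and 0.008 in supplemented ADX). In sham and at 1 h it varied more (0.342 and 0.465), so its slope rests mainly on those groups. A call can therefore be lost without a smaller difference, as for Hif3a, which read 2.39 before adjustment and 2.65 after. For reference, high Cort against sham called 0.871% of genes. That comparison shares the high Cort libraries, so its values are given beside those for single genes only.

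**Figure D1:**
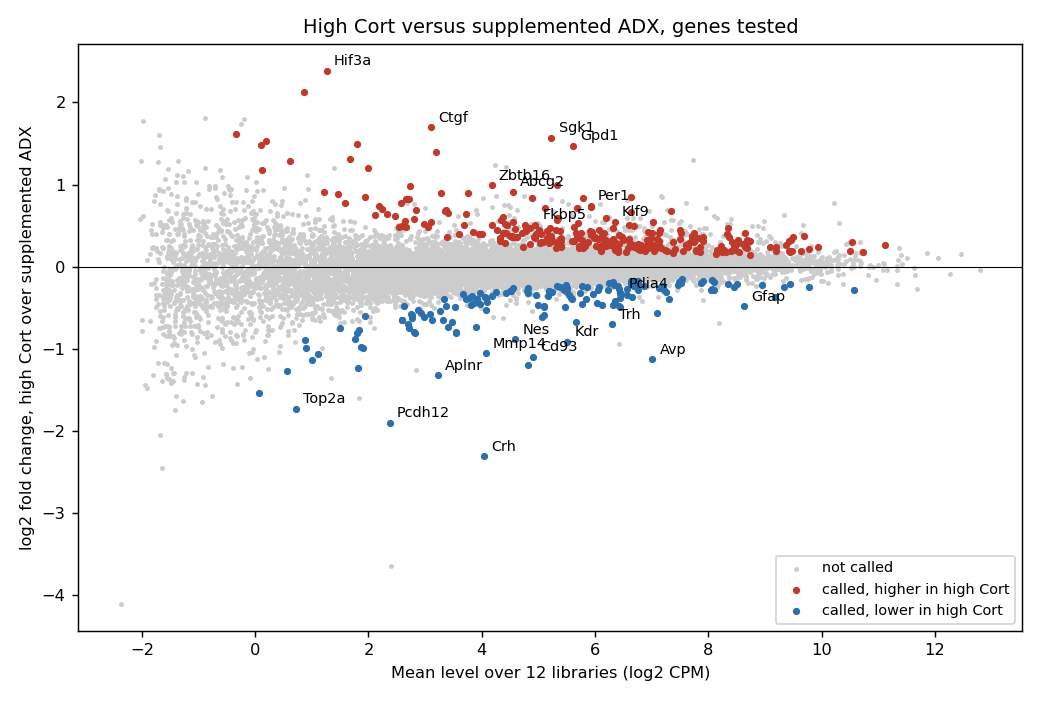
Each point is 1 of the 12856 genes tested, placed by its mean level over 12 libraries (log2 CPM) and its log2 fold change in high Cort over supplemented ADX; red and blue mark the 285 called higher and the 157 called lower. Crh has the lowest fold change among called genes and Hif3a the highest, and most called genes lie within 1 log2 unit of 0.

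The peptide genes Crh and Avp were lower under excess than under replacement. The bulk tissue does not show which neurons the Avp fragments came from. Of 24 tested neuropeptide genes of the PVH and other hypothalamic nuclei, 7 fell and none rose. That share was 29.2% beside 1.22% of all genes called lower. The median log2 fold change was -0.30 against 0.008 over all genes. Crh, which encodes CRH, stood at 2.35 and 4.16 CPM in high Cort and at 14.3 and 18.9 CPM in supplemented ADX. Both high Cort libraries were the lowest of the 8 libraries of sham, ADX, supplemented ADX and high Cort. Crh was 4.97-fold lower (log2 fold change -2.31 ± 0.25 SE, edgeR adjusted p = 0.00248). Since the tissue was measured in bulk, fewer cells of a type and less RNA per cell cannot be told apart, for Crh or for any gene below. Avp, which encodes vasopressin, read 75.0 and 58.1 CPM against 149 and 142 CPM. Avp was 2.19-fold lower (-1.13 ± 0.12, edgeR adjusted p = 0.00255). Both calls remained in all 12 alternatives, and after adjustment for the thalamus score Crh read -2.58 and Avp -1.24.

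Against the untreated level, Crh in sham was 10.5 and 13.5 CPM, and in ADX 25.6 and 26.9 CPM. The supplemented level therefore lay between those of sham and ADX. Neither difference from it passed the test: 0.46 against sham (edgeR adjusted p = 0.501) and -0.67 against ADX (edgeR adjusted p = 1), in comparisons that called 0.0156% and 0.0311% of genes and share the supplemented libraries. High Cort lay below sham as well, by -1.85 (edgeR adjusted p = 0.0170). For Avp the supplemented libraries stood at the level of ADX, at 145 and 148 CPM, and above sham, at 95.2 and 103 CPM. Its 2 differences, 0.55 from sham (edgeR adjusted p = 0.220) and -0.01 from ADX, did not pass.

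The other called peptide genes moved less. Trh, which encodes the thyrotropin-releasing hormone that drives the thyroid axis from the PVH, read 50.5 and 50.8 CPM in high Cort and 81.4 and 83.6 CPM in supplemented ADX (-0.70 ± 0.13, edgeR adjusted p = 0.0284). It was no longer called when any of the 4 libraries was left out, with adjusted p between 0.14 and 0.17, and with the thalamus score (edgeR adjusted p = 0.232). The opioid peptide genes Penk (-0.45 ± 0.08) and Pdyn (-0.48 ± 0.10), the galanin gene Gal (-0.47 ± 0.11) and the granule protein gene Scg2 (-0.25 ± 0.04) fell too. Penk in high Cort, at 51.0 and 49.0 CPM, stood near sham, at 53.4 and 43.95 CPM. Its supplemented level, 71.6 and 64.6 CPM, was near that of ADX, 67.6 and 67.7 CPM. Pdyn read 63.1 CPM in both high Cort libraries and 91.6 and 84.0 CPM in supplemented ADX. Oxt, which encodes oxytocin, stood at 209 and 179 CPM against 305 and 318 CPM without passing the test (-0.68 ± 0.26, edgeR adjusted p = 0.230). Sst, the somatostatin gene, likewise read 49.98 and 51.2 CPM against 92.6 and 102 CPM (-0.94 ± 0.23, edgeR adjusted p = 0.0830). The largest positive value of the list, 1.20 ± 0.42 for Vip, did not pass either (edgeR adjusted p = 0.168). Between 2 and 4 members of the list were called when 1 library was left out, and 3 after adjustment for the thalamus score.

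**Figure D2:**
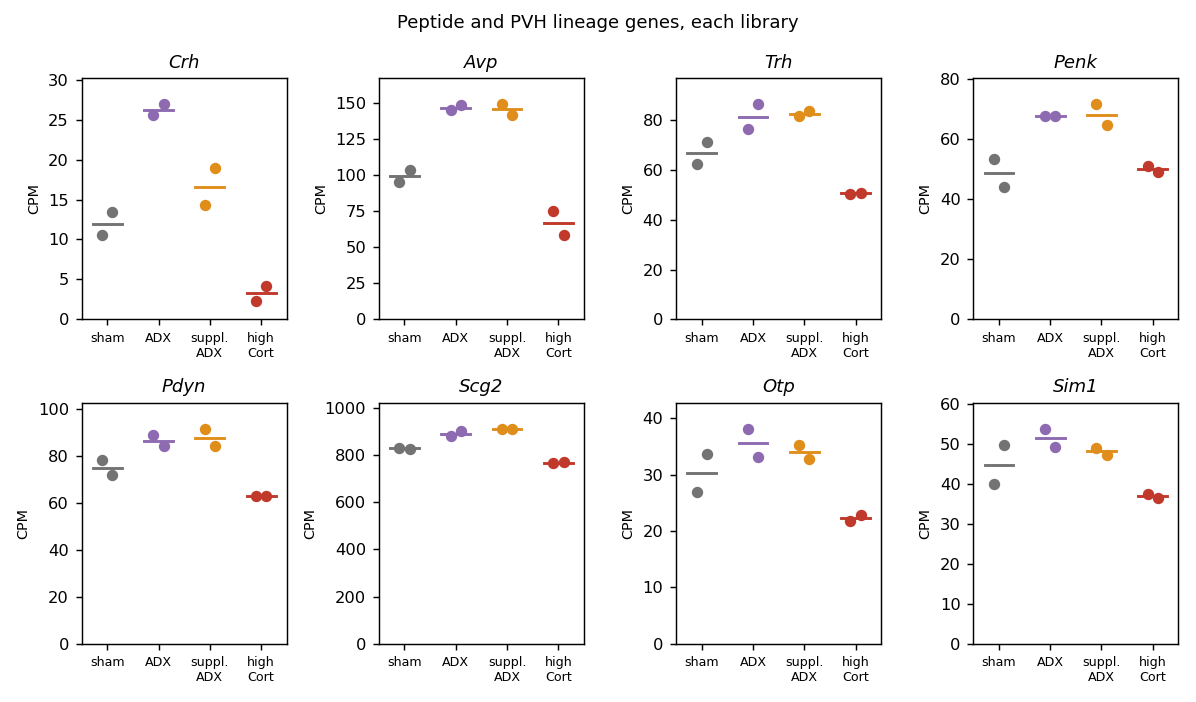
Levels in CPM of 8 genes of peptides and PVH neurons in the 8 libraries of sham, ADX, supplemented ADX and high Cort; points are libraries and bars are group means. The 2 high Cort points lie below the 2 supplemented ADX points in every panel, and for Crh, Avp, Trh, Scg2, Otp and Sim1 below all other points. For Penk a sham point, at 43.95 CPM, lies lower.

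A list of genes that build or mark PVH neurons, most of them transcription factors, also held genes that fell. Of its 12 tested members, 4 fell and none rose, a share of 33.3% beside 1.22% of all genes called lower. In the list 11 had a negative value, with a median of -0.31, where 52.7% of all genes tested were positive. Otp, a homeobox gene needed for these neurons to form, read 21.7 and 22.8 CPM in high Cort and 35.2 and 32.8 CPM in supplemented ADX (-0.61 ± 0.10, edgeR adjusted p = 0.00608). Sim1, the factor that marks the PVH, read 37.5 and 36.5 CPM against 49.0 and 47.3 CPM (-0.38 ± 0.08, edgeR adjusted p = 0.0236). Pou3f2, which acts in CRH, vasopressin and oxytocin neurons, fell by 0.32 ± 0.05 and kept its call in all 12 alternatives. Fezf1, with the largest fall of the list, is a gene of the ventromedial nucleus and belongs to the arcuate and ventromedial list too (-1.23 ± 0.27). It kept the call without high Cort library 2 but not without each of the others. Fezf1 read 1.05 and 2.03 CPM in high Cort, beside 2.00 and 2.09 CPM in sham (-0.37, edgeR adjusted p = 0.842). Sim1 lost its call without each of the 4 libraries, and Otp without high Cort library 1 (edgeR adjusted p = 0.088) and without supplemented ADX library 1 (0.075). Mc4r, the melanocortin receptor gene, read -0.42, Sim2 -0.33, Dlk1 -0.29, Brs3 -0.28, Nkx2-2 -0.25, Arnt2 -0.15, Peg3 -0.08 and Nr4a2 0.13, none of which passed. After adjustment for the thalamus score, 3 of the list were called (Otp, Sim1 and Pou3f2).

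All 11 tested genes of the arcuate and ventromedial nuclei had negative values, with a median of -0.35. Fezf1 and the prolactin receptor gene Prlr were called, a share of 18.2% beside 3.44% of all genes. The part of these nuclei in the values of the peptide genes was not tested. The suprachiasmatic and anterior hypothalamic list had 20 tested genes, a median of -0.22 and no call by edgeR in the 12-library model (8 at an unadjusted p under 0.05, 1 by DESeq2, 1 after adjustment for the thalamus score and 6 in a fit of the 4 libraries alone). Of 22 genes of neurons in general, the neurofilament gene Nefh rose (0.41 ± 0.06, edgeR adjusted p = 0.00207) and the synapsin gene Syn2 fell (-0.19 ± 0.04, edgeR adjusted p = 0.0235), and 17 had a positive value. The share called was 9.09% beside 3.44% of all genes. Peptide processing genes moved both ways: of 11, the prohormone convertase gene Pcsk2 rose (0.32 ± 0.06) and its relative Pcsk1 fell (-0.32 ± 0.06). The share called was 18.2% beside 3.44% of all genes. Pcsk2 in sham, at 462 and 515 CPM, stood near its 499 and 531 CPM in high Cort. Among 20 peptide receptor genes, the leptin receptor gene Lepr rose from 9.03 and 9.01 CPM in supplemented ADX to 15.5 and 13.5 CPM in high Cort (0.68 ± 0.11, edgeR adjusted p = 0.00403). Prlr (-0.62 ± 0.15) and the somatostatin receptor gene Sstr1 (-0.29 ± 0.07) fell. Called members made up 15% of the list beside 3.44% of all genes. Sstr1 in high Cort, at 30.6 and 31.5 CPM, stood near sham, at 31.1 and 30.4 CPM. In high Cort against sham, Lepr read 0.38, Prlr -0.23 and Sstr1 0.01, and none passed (edgeR adjusted p = 0.202, 0.808 and 0.985). Prlr, Sstr1, Pcsk2 and Syn2 were not called when any 1 of the 4 libraries was left out, Pcsk1 was called without supplemented ADX library 1 only, and Lepr lost its call without high Cort library 1 (edgeR adjusted p = 0.069). None of these 3 receptor genes was called after adjustment for the thalamus score.

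The receptors for the hormone did not pass the test. Nr3c1 read 201 and 219 CPM in high Cort and 205 and 221 CPM in supplemented ADX, and the groups overlapped. Its difference was -0.02 ± 0.06 (edgeR adjusted p = 0.898). Nr3c2 read 47.8 and 52.2 CPM against 46.2 and 49.9 CPM (0.06 ± 0.06, edgeR adjusted p = 0.653). Of 20 genes for these receptors, their chaperones, cofactors and steroid enzymes, 2 rose, a share of 10.0% beside 2.22% of all genes called higher. They were Fkbp5, a co-chaperone that lowers the affinity of the receptor for the hormone, and the corepressor gene Ncor1 (0.18 ± 0.04). Ncor1 kept its call in 2 of 12 alternatives and in none that left out a library (edgeR adjusted p from 0.14 to 0.26). Without 1 library 0 or 1 gene of the list was called, and none was after adjustment for the thalamus score. Hsd11b1, whose enzyme regenerates corticosterone inside cells, read 15.2 and 12.0 CPM against 11.3 and 11.1 CPM (0.27 ± 0.14, edgeR adjusted p = 0.329).

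Many listed targets of the glucocorticoid receptor were higher under excess. The list, like the other gene lists, was chosen with earlier results of these data known. Its share therefore describes the list and is not a test. Of 47 tested glucocorticoid-induced genes, 21 rose and none fell (3 were lower at an unadjusted p under 0.05), a share of 44.7% against 3.44% over all genes; 38 had a positive value, and the median was 0.31 against 0.008 over all genes. Sgk1, a kinase gene of ion transport, read 92.2 and 67.1 CPM in high Cort and 26.9 and 26.6 CPM in supplemented ADX. It was 2.97-fold higher (1.57 ± 0.12, edgeR adjusted p = 0.000381). Supplemented ADX, ADX (24.7 and 27.4 CPM) and sham (32.3 and 30.0 CPM) lay close together, so of these 8 libraries the 2 of high Cort stood apart. Gpd1, which links glycolysis to lipid synthesis and is abundant in oligodendrocytes, read 124 and 103 CPM against 38.2 and 43.8 CPM (1.47 ± 0.15, edgeR adjusted p = 0.00248). Hif3a, a subunit of the hypoxia-inducible factors, was 5.23-fold higher (2.39 ± 0.35, edgeR adjusted p = 0.00640), from 1.39 and 1.19 CPM to 7.65 and 6.02 CPM.

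Smaller changes in the same direction were called in further members. Klf9, a zinc finger factor gene of neurons and glia, read 109 and 108 CPM in high Cort and 74.0 and 74.3 CPM in supplemented ADX (0.55 ± 0.04, edgeR adjusted p = 9.24e-06). Per1, a clock gene that glucocorticoids are known to induce, read 84.9 and 80.9 CPM against 48.7 and 50.5 CPM (0.74 ± 0.08, edgeR adjusted p = 0.000381). In both genes the libraries of each group lay close together and far from the other group. Klf15, a metabolic regulator gene, rose by 0.51 ± 0.07 and Zbtb16 by 0.99 ± 0.17. The feedback genes Fkbp5 and Tsc22d3 rose too. Fkbp5 read 46.5 and 37.2 CPM against 29.4 and 29.2 CPM (0.51 ± 0.08, edgeR adjusted p = 0.00469). Tsc22d3, which encodes the anti-inflammatory leucine zipper protein GILZ, read 83.9 and 68.1 CPM against 54.5 and 58.9 CPM (0.42 ± 0.08, edgeR adjusted p = 0.0153). High Cort library 1 was above library 2 for Sgk1, Gpd1, Hif3a, Fkbp5 and Tsc22d3, and it also held more Rn18s; the part of RNA quality in these values was not tested.

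The remaining members that rose were Pla2g3 (2.13), Sult1a1 (1.49), the metallothionein gene Mt2A (1.17), Pdk4, which restrains glucose oxidation (0.63), Mfsd2a (0.50), Bcl6 (0.47), Gjb6 (0.45), Nfkbia, which restrains NF-kB (0.42), Rhob (0.41), Mertk (0.36), Errfi1 (0.31) and Glul (0.31). Sult1a1 and Mt2A have close relatives with which reads may be shared, so their values are uncertain. Dusp1, a phosphatase gene, read 0.72 ± 0.18 and did not pass (edgeR adjusted p = 0.0704). The lowest member, Lcn2 (-1.38 ± 0.46, edgeR adjusted p = 0.113), was under 1 CPM in all 4 libraries. The count depended on single libraries: 6 members were called without high Cort library 1, 19 without high Cort library 2, 9 without supplemented ADX library 1 and 5 without supplemented ADX library 2. Klf9, Per1, Gpd1, Klf15 and Sgk1 were called each time. Fkbp5, Tsc22d3, Hif3a, Zbtb16 and Sult1a1 kept the call without high Cort library 2 and lost it without each of the other 3 libraries. After adjustment for the thalamus score, 10 of the 21 were called, among them Sgk1, Gpd1 (1.61), Per1 (0.71), Klf9 (0.53) and Klf15 (0.61), while Fkbp5 (0.48, edgeR adjusted p = 0.055) and Hif3a (2.65, 0.063) were not. Sgk1 had an adjusted p of 0.0847 in a fit of the 4 libraries alone.

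**Figure D3:**
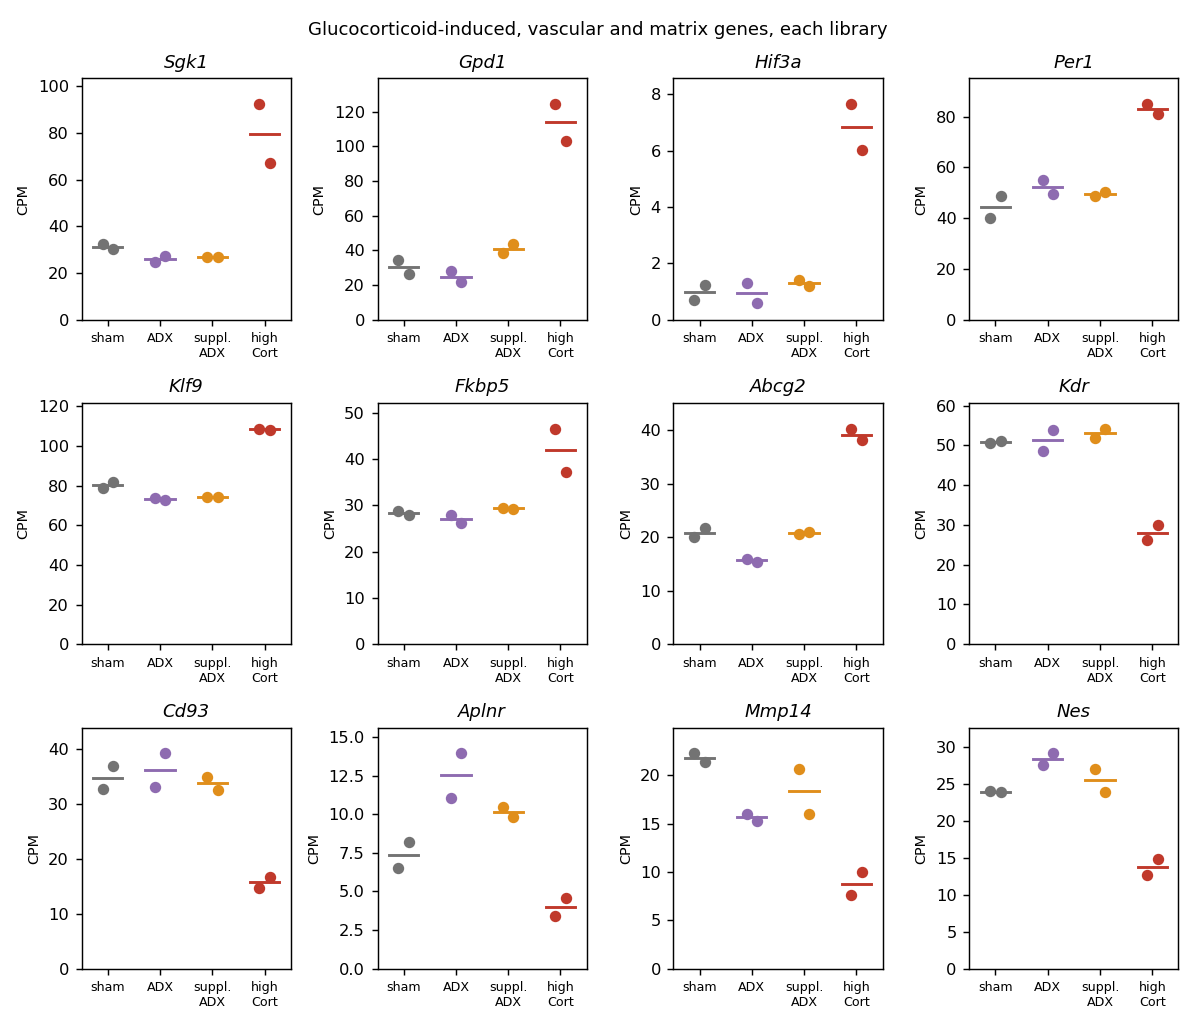
Levels in CPM of 12 glucocorticoid-induced, vascular, matrix and progenitor genes in the 8 libraries of sham, ADX, supplemented ADX and high Cort; points are libraries and bars are group means. Both high Cort points lie above all other points from Sgk1 to Abcg2 and below all others from Kdr to Nes.

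The glucocorticoid receptor binds a palindrome of 6-base arms spaced by 3 bases, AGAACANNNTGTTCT, which reads the same on both strands. Promoters from RefSeq (build GRCr8, 250 bases before to 50 after each start) were searched on both strands for it with at most 2 mismatches in the arms. A match lay in the promoter of 4 of 212 called-higher genes with a sequence (1.89%), in none of 118 called-lower genes and in 76 of 9704 tested genes (0.783%); over the whole table it was 534 of 27457 genes (1.94%). Of the 17 called members of the glucocorticoid-induced list with a promoter, 1 held a match, Sult1a1. The genes with a match were Slc6a17, Sult1a1, Sema6b and Slitrk3; apart from Sult1a1, they are named here after their values were seen. Slc6a17, a transporter gene of synaptic vesicles, read 1018 and 1008 CPM in high Cort and 778 and 788 CPM in supplemented ADX (0.37 ± 0.07), and its match was the only one with 1 mismatch. The 250 bases upstream of Slc6a17 (chr2:197843884-197844133, minus strand) and of Sult1a1 (chr1:190706113-190706362, minus strand) are shown because these 2 promoters hold the closest match and the one match among the listed targets. Capitals mark the match, at -195 to -181 and at -89 to -75 from the start. A match describes the letters only, and none of them is evidence of binding.
Slc6a17: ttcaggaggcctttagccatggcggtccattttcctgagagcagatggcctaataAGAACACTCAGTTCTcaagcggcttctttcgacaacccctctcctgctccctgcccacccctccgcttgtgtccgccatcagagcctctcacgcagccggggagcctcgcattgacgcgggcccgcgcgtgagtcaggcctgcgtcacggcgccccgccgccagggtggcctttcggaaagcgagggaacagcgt
Sult1a1: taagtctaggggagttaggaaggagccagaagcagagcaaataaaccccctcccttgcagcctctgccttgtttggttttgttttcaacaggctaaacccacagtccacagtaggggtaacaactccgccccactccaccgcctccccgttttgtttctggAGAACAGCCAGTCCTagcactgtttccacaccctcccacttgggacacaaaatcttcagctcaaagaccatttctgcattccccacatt

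Endothelial genes fell under excess. Of 28 tested, 11 fell and none rose (2 were higher at an unadjusted p under 0.05), a share of 39.3% beside 1.22% of all genes called lower, with a median of -0.28 and 3 positive values. Kdr, the receptor of vascular endothelial growth factor A, read 26.1 and 30.1 CPM in high Cort and 51.9 and 54.2 CPM in supplemented ADX. Its high Cort libraries lay below all 6 libraries of sham, ADX and supplemented ADX, at a 1.88-fold lower level (-0.91 ± 0.07, edgeR adjusted p = 1.35e-05). Cd93, a surface protein gene of endothelium, read 14.7 and 16.8 CPM against 34.9 and 32.6 CPM (-1.10 ± 0.11, edgeR adjusted p = 0.000448). Aplnr, the apelin receptor gene of sprouting vessels, read 3.44 and 4.56 CPM against 10.4 and 9.79 CPM (-1.33 ± 0.15, edgeR adjusted p = 0.000434). Pcdh12, a protocadherin of endothelial junctions, had the largest fall of the list, from 6.29 and 5.79 CPM to 0.931 and 2.196 CPM (-1.90 ± 0.27, edgeR adjusted p = 0.00383). Each of these genes kept its call in all 12 alternatives.

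The other endothelial genes that fell were Sox7 (-0.78), the sialomucin gene Cd34 (-0.73), Clec14a (-0.65), Itm2a (-0.39), Eng (-0.31), the nitric oxide synthase gene Nos3 (-0.31) and the junction cadherin gene Cdh5 (-0.29). Among the members that did not pass, Pecam1 read -0.05 ± 0.08 and the tight junction gene Cldn5 -0.24 ± 0.06 (edgeR adjusted p = 0.781 and 0.0514). Summed over the list, the level was 662 and 694 CPM in high Cort and 832 and 798 CPM in supplemented ADX. Without 1 library, 5 to 8 members were called: 5 without high Cort library 1, 8 without high Cort library 2, 6 without supplemented ADX library 1 and 7 without supplemented ADX library 2. With the thalamus score, 8 remained, all among the 11. Hemoglobin and other blood cell genes moved the same way: all 7 had negative values, their summed level was 33.3 and 30.3 CPM against 49.6 and 43.2 CPM, and Hbb was called (-0.68 ± 0.14), although reads may be shared between globin copies and the call was lost when any 1 library was left out (edgeR adjusted p from 0.075 to 0.16). Hbb made up 14.3% of the tested blood cell genes, beside 1.22% of all genes called lower. The part of blood content in the endothelial values was not tested, and the perfusion of the brains is not given. Of 15 pericyte and smooth muscle genes, Notch3 fell (-0.23 ± 0.06) and none rose, a share of 6.67% beside 1.22% of all genes called lower.

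Transporters of the blood-brain barrier moved in both directions. Of 16, 3 rose and 2 fell, a share of 31.2% beside 3.44% of all genes called. Abcg2, an efflux pump gene, read 40.3 and 38.2 CPM in high Cort and 20.6 and 21.0 CPM in supplemented ADX, and sham stood at 20.04 and 21.7 CPM. It was 1.89-fold higher (0.91 ± 0.07, edgeR adjusted p = 9.24e-06) and was called in all 12 alternatives. The thiamine transporter gene Slc19a3 rose 2.48-fold (1.31 ± 0.19, edgeR adjusted p = 0.00229), also in all 12, and Mfsd2a, which carries omega-3 lipids and limits vesicle traffic, rose by 0.50 ± 0.09. The monocarboxylate transporter gene Slc16a1 (-0.27 ± 0.05) and the organic anion transporter gene Slc22a8 (-0.40 ± 0.09) fell. Mfsd2a and Slc16a1 lost the call without high Cort library 1 and without supplemented ADX library 2.

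Matrix genes changed in 9 of 25 cases (36% beside 3.44% of all genes), 3 upward and 6 downward. Mmp14, a membrane-bound metalloproteinase gene, read 7.61 and 9.95 CPM against 20.6 and 16.0 CPM (-1.05 ± 0.14, edgeR adjusted p = 0.00237). Mmp2, whose product MMP14 activates, fell as well (-0.57 ± 0.11). So did the basement membrane genes Lama4 (-0.58 ± 0.08) and Nid2 (-0.79 ± 0.12) and the collagen genes Col3a1 (-0.73 ± 0.17) and Col5a1 (-0.44 ± 0.09). Ctgf, which encodes a matrix-associated growth factor, rose 3.25-fold, from 5.99 and 6.23 CPM to 22.4 and 17.5 CPM (1.70 ± 0.22, edgeR adjusted p = 0.00403). Fn1 (0.27 ± 0.06) and the protease inhibitor gene Timp3 (0.21 ± 0.05) rose less. Mmp14 and Lama4 were called in all 12 alternatives; Ctgf lost the call without supplemented ADX library 1 (edgeR adjusted p = 0.068) and library 2 (0.055). The list had 3 calls without high Cort library 1, 7 without high Cort library 2, and 5 and 4 without supplemented ADX libraries 1 and 2. Among 27 growth factor and insulin signalling genes, Igf2 (-1.20 ± 0.21), Igfbp5 (-0.42 ± 0.07) and Vegfa (-0.23 ± 0.05), the ligand of KDR, fell, and Irs2 (0.20 ± 0.05) and Ntrk2 (0.18) rose. The share called was 18.5% beside 3.44% of all genes. None of the 27 was called without high Cort library 1 or without supplemented ADX library 2, 3 were called without high Cort library 2, and 1 without supplemented ADX library 1. Igf2 is also expressed by the choroid plexus and meninges, whose 19 genes had a median of -0.03 and no other call. Their share called was 5.26%, near the 3.44% of all genes. Of the 4 fits with 1 library left out, Igf2 was called only in that without high Cort library 2.

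Glial genes showed a mixed pattern. Of 17 astrocyte genes, 3 rose and 2 fell, with a median of 0.02. The share called was 29.4% beside 3.44% of all genes. Gfap, the filament gene of reactive astrocytes, read 295 and 297 CPM in high Cort and 429 and 399 CPM in supplemented ADX (-0.49 ± 0.07, edgeR adjusted p = 0.00402), and the water channel gene Aqp4 fell by 0.28 ± 0.05. The glutamine synthetase gene Glul (0.31 ± 0.07), the gap junction gene Gjb6 (0.45 ± 0.08) and Aldoc (0.36 ± 0.08) rose; Glul and Gjb6 also belong to the glucocorticoid-induced list. Nes, the nestin gene of progenitors and growing vessels, read 12.7 and 14.8 CPM against 27.1 and 23.9 CPM (-0.88 ± 0.09, edgeR adjusted p = 9.71e-05) and was called in all 12 alternatives. Enpp6, which marks newly forming oligodendrocytes, was the 1 called gene of 22 oligodendrocyte and myelin genes (-0.79 ± 0.14, edgeR adjusted p = 0.00744), and none of 11 precursor genes was called by edgeR in the 12-library model (2 at an unadjusted p under 0.05, 2 by DESeq2, 1 without high Cort library 2 and 1 in a fit of the 4 libraries alone). For the 22 oligodendrocyte and myelin genes the share called was 4.55%, near the 3.44% of all genes. Top2a (-1.73 ± 0.32) and Cenpf (-0.99 ± 0.22), 2 of 23 cell cycle genes, fell, a share of 8.7% beside 1.22% of all genes called lower. Top2a read 0.324 and 0.666 CPM against 1.45 and 1.97 CPM, and Cenpf lost its call without each of the 4 libraries. Without high Cort library 1, no astrocyte gene was called, and Gfap had an edgeR adjusted p of 0.064. Enpp6 and Top2a lost the call without high Cort library 1 and without supplemented ADX library 2, and Aqp4 and Aldoc were called without high Cort library 2 only.

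Of 18 microglial genes, P2ry12 was called (-0.38 ± 0.09, edgeR adjusted p = 0.0374), a share of 5.56% beside 3.44% of all genes, and 4 were called without high Cort library 2. Of 7 perivascular macrophage genes, 1 was called, a share of 14.3% beside 3.44% of all genes. This was Cd163, a scavenger receptor gene of perivascular macrophages that glucocorticoids are known to induce, which read 7.49 and 6.39 CPM in high Cort and 3.83 and 3.88 CPM in supplemented ADX (0.84 ± 0.16, edgeR adjusted p = 0.00915). Both P2ry12 and Cd163 were called without high Cort library 2 but not without each of the others. Cd163 was not called with the thalamus score (0.72, edgeR adjusted p = 0.151). Of 27 interferon and antigen presentation genes none was called by edgeR in the 12-library model or by DESeq2, 5 had an unadjusted p under 0.05, and 4 were called in a fit of the 4 libraries alone; 6 were positive, and the median was -0.20. Their lowest value was that of RT1-Da (-1.65 ± 0.53, edgeR adjusted p = 0.103), a class II gene of a family whose members may share reads.

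Of 25 heat shock and unfolded protein chaperone genes, 4 fell and 1 rose, with a median of -0.10. Called members made up 20% of the list beside 3.44% of all genes. Pdia4 (-0.33 ± 0.04, edgeR adjusted p = 0.00129), Hspa5 (-0.25 ± 0.05), Pdia6 (-0.22 ± 0.05) and Hsp90b1 (-0.21 ± 0.04) fell, all of them folding factors of the endoplasmic reticulum, and the cytosolic Hsph1 rose (0.24 ± 0.05). Calr (-0.17), Canx (-0.09) and Manf (-0.17), of the same compartment, did not pass. The list had 1 to 3 calls when 1 library was left out. Pdia4 read 78.8 and 75.9 CPM against 97.2 and 97.4 CPM and was called in all 12 alternatives, and it was the 1 gene of the list called with the thalamus score. Among 18 clock genes Per1, Nr1d1 (0.32 ± 0.08) and Nr1d2 (0.21 ± 0.05) rose, the last 2 encoding the REV-ERB repressors. The share called was 16.7% beside 3.44% of all genes. Nr1d1 in sham, at 94.9 and 101 CPM, stood above its 89.2 and 88.55 CPM in high Cort. Nr1d1 was not called when any 1 library was left out, and Nr1d2 was called without supplemented ADX library 2 only. The time of day of sampling is not given in the labels. Of 22 immediate early genes, which mark recent neuronal activity, Homer1 rose (0.30 ± 0.07) and Ier5 fell (-0.39 ± 0.09), neither of them called with any 1 library left out. The share called was 9.09% beside 3.44% of all genes. Fos read 8.13 and 11.5 CPM against 10.6 and 12.4 CPM with overlapping groups (-0.21 ± 0.35, edgeR adjusted p = 0.819), and Egr1 read -0.47 ± 0.23 (edgeR adjusted p = 0.347).

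Potassium channel genes rose in 12 of 84 cases and fell in none (4 were lower at an unadjusted p under 0.05), with a median of 0.15. That share was 14.3% beside 2.22% of all genes called higher. Kcnf1, which encodes a silent subunit of voltage-gated channels, read 74.5 and 74.2 CPM in high Cort and 45.4 and 45.2 CPM in supplemented ADX (0.72 ± 0.07, edgeR adjusted p = 7.38e-05). It was the 1 channel gene of the 84 called with the thalamus score (0.56, edgeR adjusted p = 0.00051). The others included Kcna1 (0.59), Kcnh5 (0.51), Kcnj11 (0.35), Kcnj6 (0.32), Kcnh2 (0.31), Kcnk3 (0.31), Kcna6, Kcnab2 and Kcnk13. Against sham, Kcnf1 was higher in high Cort as well (0.53, edgeR adjusted p = 0.00122). Kcnj11 (0.26), Kcnh2 (0.12) and Kcnh5 (0.12) did not pass against sham (edgeR adjusted p = 0.0814, 0.528 and 0.8). Without 1 library, 2 to 5 channel genes were called. Some transmitter receptor genes rose: the NMDA receptor genes Grin1 (0.18 ± 0.04) and Grin2d (0.25 ± 0.05), the muscarinic gene Chrm3 (0.47 ± 0.08) and the histamine receptor gene Hrh3 (0.68 ± 0.09). They were among 22 glutamate and 24 monoamine and acetylcholine receptor genes tested, and edgeR called none of either class lower. The shares called were 9.09% and 8.33%, beside 2.22% of all genes called higher. In high Cort against sham, Grin1 read 0.08, Grin2d 0.09, Chrm3 0.30 and Hrh3 0.38. None of these passed (edgeR adjusted p = 0.687, 0.672, 0.173 and 0.148). Of 20 GABA and glycine receptor genes, 1 was called (5.0% beside 3.44% of all genes), 11 were positive and the median was 0.02. Grin1 was not called when any 1 library was left out, and Grin2d was called without supplemented ADX library 1 only. Chrm3 lost its call without high Cort library 1 and without supplemented ADX library 1, and Hrh3 without either supplemented ADX library. Thalamus genes moved with all of these, as given above, and of these 4 receptor genes only Hrh3 was called after adjustment for the thalamus score (0.50, edgeR adjusted p = 0.0052). Of the 80 cytosolic ribosomal protein genes and 71 respiratory chain genes, neither edgeR in the 12-library model nor DESeq2 called any, while 15 and 4 had an unadjusted p under 0.05. A fit of the 4 libraries alone called 5 and 1, and Atp5i of the respiratory chain (edgeR adjusted p = 0.0527) was called with RLE size factors (0.0447). Of the ribosomal genes, 6 of the 80 had a positive value, with a median of -0.10, and the median of the 71 was -0.01.

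**Figure D4:**
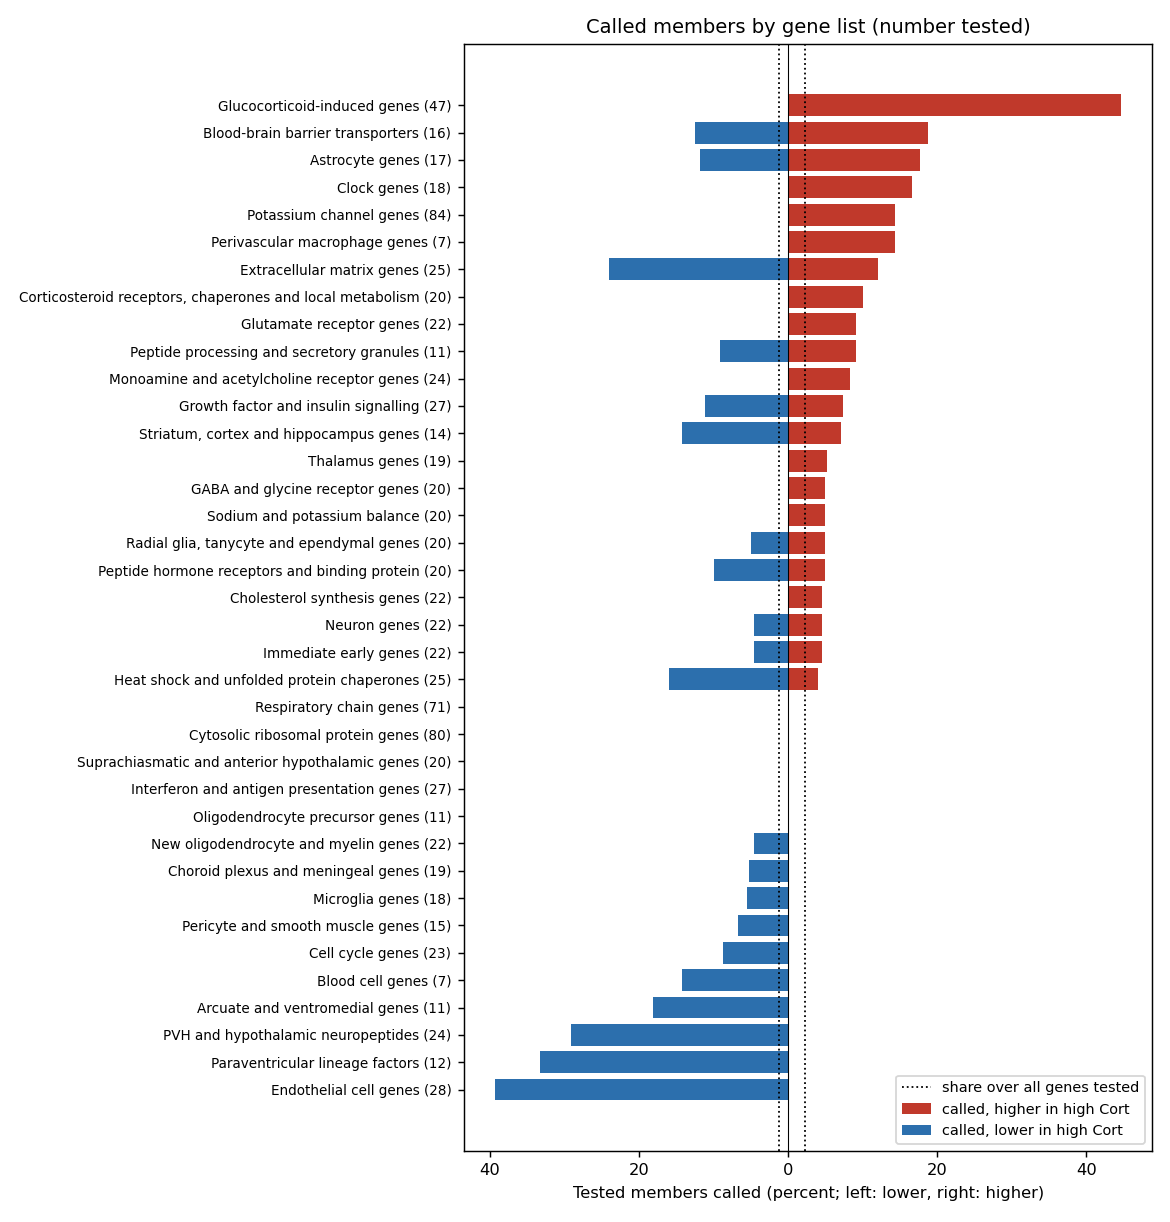
Bars give the percent of the tested members of each list called lower (left, blue) and higher (right, red) in high Cort, with the number tested in brackets and dotted lines at the 1.22% and 2.22% of all genes tested. The glucocorticoid-induced list reaches furthest to the right, at 21 of 47, and the endothelial list furthest to the left, at 11 of 28.

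Genes outside the lists with the largest changes included, among those that rose, the carboxylesterase gene Ces5a (1.40 ± 0.21), the carbonic anhydrase gene Car7 (1.20 ± 0.18), Necab3 (0.99 ± 0.16) and Pcdhb6 (0.98 ± 0.18), a member of a gene cluster whose copies may share reads. Ces5a read 20.4 and 17.2 CPM in high Cort and 6.81 and 7.45 CPM in supplemented ADX. Among those that fell were the BMP antagonist gene Grem1 (-1.06 ± 0.22), Fam129a (-0.99 ± 0.21) and the immune receptor gene Lilrb3l (-0.98 ± 0.18), a family member for which reads may be shared. Car7 was called without each of the 4 libraries in turn and Necab3 and Grem1 lost the call without each. Ces5a, Pcdhb6, Fam129a and Lilrb3l were called without high Cort library 2 only. With the thalamus score, Car7 (0.90, edgeR adjusted p = 0.0858), Pcdhb6 and Lilrb3l were not called, while Necab3, Grem1, Ces5a and Fam129a were.

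Comparisons with no library in common with the 4 described here allow the sign of the called genes to be read again. In ADX against sham (0.233% of genes called), 260 of the 285 genes higher in high Cort had a negative value (91.2%) and 137 of the 157 lower genes a positive one (87.3%), where 48.3% of all genes tested were positive. Crh read 1.13 and Aplnr 0.76 there, both opposite to their change under excess. Aplnr passed the test (edgeR adjusted p = 0.0368) and Crh did not (edgeR adjusted p = 0.0695). Abcg2 fell by 0.41 (edgeR adjusted p = 0.0368). The thalamus score moved in the same sense, from 5.91 and 6.39 in sham to 5.67 and 5.80 in ADX. For the 21 called glucocorticoid-induced genes, 15 values were negative in ADX.

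At 3 h after acute corticosterone (7.98% of genes called against sham), 233 of the 285 genes had a negative value (81.8%) and 120 of the 157 a positive one (76.4%), with 49.1% positive over all genes. At 1 h (12.8% called) these counts were 238 (83.5%) and 119 (75.8%), with 49.4% positive over all genes. The Cuffdiff runs stand the other way round in these comparisons: sham was processed with high Cort, and both acute groups with supplemented ADX. A run difference would therefore enter these signs in the opposite sense, and its part cannot be told apart from that of the groups. Both acute groups and ADX share the sham libraries, and the thalamus score was lower than in sham in both, at 5.37 and 5.43 at 3 h and 5.49 and 4.83 at 1 h. Of the 21 called glucocorticoid-induced genes, 15 had a positive value at 3 h and 11 at 1 h. Per1 rose at 1 h, to 82.5 and 87.4 CPM (0.93, edgeR adjusted p = 0.000128), a level like that of high Cort, and stood at 49.8 and 51.9 CPM at 3 h. Sgk1 stood at 31.7 and 32.5 CPM at 1 h and at 29.4 and 29.6 CPM at 3 h, and its difference from sham did not pass at either time (edgeR adjusted p = 0.887 and 0.784). Crh (0.89, edgeR adjusted p = 0.0357) and Avp (0.90, edgeR adjusted p = 0.00741) were higher than in sham at 3 h, whereas both were lower in high Cort than in supplemented ADX. At 3 h Crh read 20.8 and 23.8 CPM, beside 14.3 and 18.9 CPM in supplemented ADX and 10.5 and 13.5 CPM in sham. Avp read 170 and 201 CPM, beside 149 and 142 CPM in supplemented ADX and 95.2 and 103 CPM in sham. The titles do not say whether the acute rats kept their adrenal glands, and the part of adrenal loss in these values was not tested. Kdr was lower than in sham at 1 h (-0.25, edgeR adjusted p = 0.0389), while its difference at 3 h was -0.14 (edgeR adjusted p = 0.272).

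**Figure D5:**
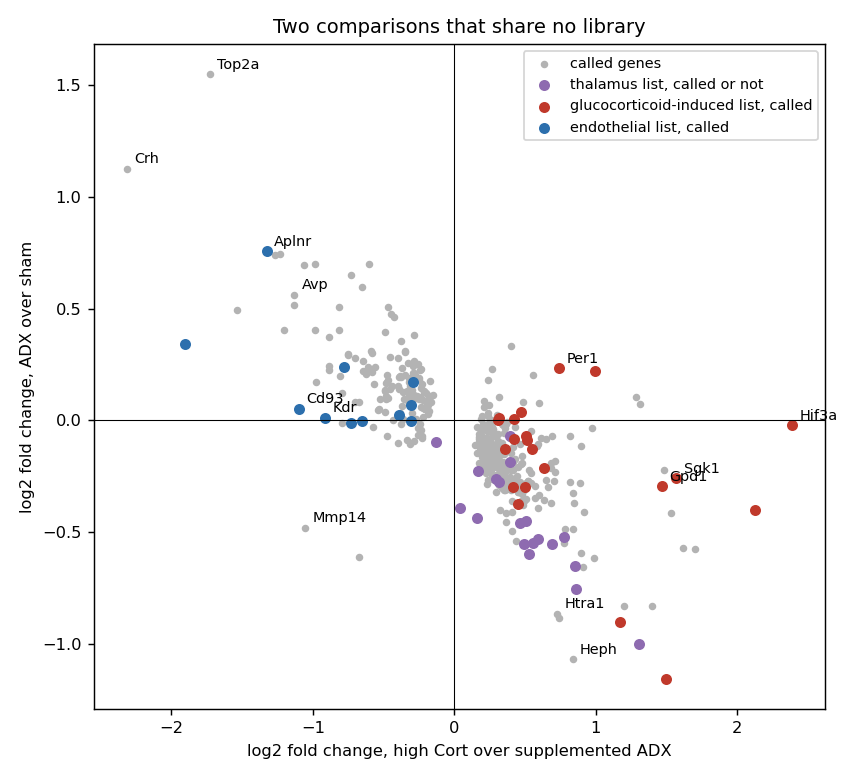
The 442 called genes and all tested thalamus genes, placed by their log2 fold change in high Cort over supplemented ADX (horizontal) and in ADX over sham (vertical), which share no library. Grey points lie mostly in the upper left and lower right, most purple thalamus genes lie in the lower right, and the blue endothelial genes other than Aplnr and Pcdh12 lie between Cd34 at -0.01 and Sox7 at 0.24 on the vertical axis.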

How the data were processed

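The 12 libraries were mRNA sequencing of total RNA, 2 per group. Each deposited file gives raw fragments per gene, expected counts that the authors deposited unscaled, per the file headers; fractional values, 0.751% of all and found in 233 genes, were rounded by 0.5 or less. Build rn6 and the tools CASAVA 1.8.2, Cufflinks 2.2.1 and TopHat2 2.1.1 are named, per the submitters' processing notes. The role of each, the annotation and the use of strand were not given in the sources used here; no rn6 positions are therefore printed, and overlapping or antisense genes cannot be separated. FPKM was not used, since it was scaled within each Cuffdiff run. In 4 cells (Hnrnpd, Adgrl2 and St6galnac5) the status was FAIL; their counts were kept. Identifiers without a gene name (681) were tested but not named.

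Genes were kept by filterByExpr (minimum count 10, total 15). One model over 12 libraries with a coefficient per group was fitted in R 4.3.3 with edgeR 4.0.16 (TMM, robust quasi-likelihood fit, 2-sided test, Benjamini-Hochberg over all tested genes; called at an adjusted p under 0.05), because 2 libraries a group leave 2 residual degrees of freedom to a fit of the pair. It was tested on simulated data. CPM are scaled by TMM, fold changes are log2 with SE, and summed levels are sums of CPM. Alternatives were RLE size factors, 2 other filters, DESeq2 1.42.0, fits of fewer groups, a replicate block, the thalamus score and leaving out each library. Replicate libraries differed by more than counting noise and were not duplicates.

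The comparison, its 38 gene lists and the alternatives were chosen with earlier results of these data known. Named were the 12 highest and 12 lowest called genes (mean log2 CPM of at least 1), up to 4 called genes of smallest p per list (up to 2 of smallest p where none was called), the paraventricular lineage factors, and always Rn18s, Hsd11b1, the receptors Nr3c1 and Nr3c2, the peptides Avp, Crh, Oxt and Trh, the targets Sgk1, Per1, Fkbp5 and Tsc22d3, and Egr1 and Fos. Further members of a list, called or not, were named after their values were seen. A few genes that the rule or a list would name are not reported here.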

Additional observations from a re-analysis of the deposited data

How the results depend on the processing

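The count of called genes (442, with 285 higher and 157 lower) moved most with the samples fitted. It was 1264 (772 and 492) in a fit of the 4 libraries alone, 870 (565 and 305) in a fit of the 8 libraries of the longer treatments and sham, and 126 (72 and 54) after adjustment for the thalamus score. Leaving out 1 library gave 79 to 213 genes, 55 to 118 higher and 24 to 95 lower, with the lone library assumed to vary like the other groups. RLE size factors, no filter, the strict filter and DESeq2 gave 403, 441, 418 and 467. With a replicate block the count was 340, 331 of them among the 442, but the numbers do not pair the libraries: 2 of 15 pairs of groups had a correlation of same-numbered deviations above 0.1. Of 85 called genes named by rule, 19 kept the call in all 12 alternatives and 39 with the thalamus score.

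Values that changed sign were all uncalled. Adjusted for the thalamus score, Brs3 read 0.043, Fos 0.049 and Hsd11b1 -0.025. When 1 library was left out, Nr3c1 ranged from -0.086 (without high Cort library 2) to 0.037 (without high Cort library 1), Nr3c2 from -0.007 to 0.12, Rn18s from -0.083 to 1.302 and Avp, for supplemented ADX against ADX, from -0.049 to 0.022. The cause was not tested. Genes under about 1 CPM rest on few fragments, so small differences in them were not detectable at this depth.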

Other observations

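Gene groups not described above held 1 or 2 called genes each, at shares of 4.55%, 5.0% and 10.0% beside 3.44% of all genes tested. Of 22 cholesterol synthesis genes, Stard4, which carries cholesterol between membranes, rose (0.23 ± 0.05, edgeR adjusted p = 0.0223), and the median was 0.02. Of 20 genes of sodium and potassium balance, which aldosterone acts on in the kidney, Sgk1 was the 1 called gene; the sodium channel subunit gene Scnn1a read 0.31 and the mineralocorticoid receptor gene Nr3c2 0.06, neither passing. Of 20 genes of radial glia, tanycytes and ependyma, the median was -0.17, 8 were lower at an unadjusted p under 0.05, Nes fell and the sodium channel gene Scn7a rose, from 27.1 and 30.2 CPM to 37.3 and 40.8 CPM (0.45 ± 0.10, edgeR adjusted p = 0.0299), but sham stood at 37.7 and 41.9 CPM and the call was lost with the thalamus score (edgeR adjusted p = 0.358).

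Genes of regions around the hypothalamus moved both ways. Of 14 genes of striatum, cortex and hippocampus, Prox1 rose (0.36 ± 0.08), and Penk and Tbr1 (-1.14 ± 0.26) fell. The share called was 21.4% beside 3.44% of all genes. Prox1 in sham, at 55.4 and 63.3 CPM, stood near its 57.5 and 63.8 CPM in high Cort. Tbr1 was not called when any 1 library was left out (edgeR adjusted p from 0.13 to 0.17). Of the 19 thalamus genes, the synaptic gene Cplx1 was called (0.32 ± 0.08, edgeR adjusted p = 0.0480), and it kept the call in 3 of 12 alternatives and in none that left out a library. With this call the thalamus list had a share of 5.26%, near the 3.44% of all genes. Prkcd, among the most thalamic of the 19, read 420 and 411 CPM against 171 and 166 CPM without passing (1.30 ± 0.45, edgeR adjusted p = 0.194), and its sham libraries stood at 251 and 412 CPM.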
